A study of Homo sapiens with 6 samples.

Results

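The nuclear-encoded subunits of the mitochondrial respiratory chain were described by complex in Het1A cells, a line of human oesophageal epithelial cells immortalised with SV40 large T antigen. Protein-coding genes were taken by symbol: NDUFA, NDUFB, NDUFC, NDUFS and NDUFV followed by a digit for complex I, SDHA to SDHD for complex II, UQCR genes and CYC1 for complex III, COX4I, COX5, COX6, COX7 and COX8 genes for complex IV, and ATP5F1, ATP5M and ATP5P genes for complex V. This gave 89 of the 58735 genes in the count table: 39 for complex I, 4 for complex II, 10 for complex III, 17 for complex IV and 19 for complex V. No measured value entered the choice of a symbol. NDUFA4 was kept under complex I as its symbol places it, although its protein is now assigned to complex IV, and COX7A2L, a supercomplex factor, was kept under complex IV. NDUFA4L2, the relative of NDUFA4, was likewise counted under complex I by its symbol alone. Its RefSeq symbol is now COXFA4L2, so its values are not evidence on complex I.

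The respiratory chain passes electrons from NADH (complex I) and succinate (complex II) through ubiquinone, complex III, cytochrome c and complex IV to oxygen, and complex V makes ATP from the proton gradient that complexes I, III and IV build. All subunits of complex II are encoded in the nucleus, whereas complexes I, III, IV and V also hold subunits made from mitochondrial DNA. Nuclear subunit genes are transcribed in the nucleus under factors such as NRF1 (nuclear respiratory factor 1), the ETS factor GABP and YY1, and the mitochondrial subunits from the mitochondrial genome itself.

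The study holds 6 RNA-seq libraries (paired-end, 150 bp), 3 per group. In the bile acid group, the culture medium was swapped once daily, on each of 5 days, for 10 min of an acid medium (pH 4.0) that carried glycocholic, taurocholic, glycodeoxycholic, glycochenodeoxycholic and deoxycholic acid, 100 µM in all. Control cells received 0.1% DMSO over the same 5 days, and nothing in the labels says that their medium was acidified, so acid and bile acids cannot be told apart. Both groups were kept in 1% serum from 48 h before treatment onwards, and cells were lysed for RNA 24 h past the final treatment. Each library is named a biological replicate, but nothing says whether separate cultures were used, so p-values measure the spread between these libraries, and all cells come from 1 line.

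Total counts per library ran from 21006677 to 28497721. Control 2 stood apart from the other 5 libraries: the 25% of genes with the shortest exonic length had a median log2 CPM (counts scaled to library size) 0.55 above the mean of controls 1 and 3, and the longest 25% had −0.58. Medians by gene set are therefore given with and without it, and for some single genes only 1 of the edgeR fold changes is given. Of markers of squamous epithelium, KRT5, KRT14, TP63 and DSG3 were below 1 CPM in every library, so the squamous layer the line derives from is not seen in these defining genes (the 7 markers summed to 73.4 to 201 CPM in controls and 84.4 to 185 CPM in bile acid libraries, nearly all from KRT17 and SFN), while those of simple epithelium (KRT8, KRT18, KRT19, EPCAM, CDH1) summed to 633 to 1541 CPM in controls and 913 to 1034 CPM in bile acid libraries. Of the 7 fibroblast markers, 4 were below 1 CPM in every library (COL3A1 at 0), and the list summed to 191 to 360 CPM in controls and 317 to 446 CPM in bile acid libraries, mainly from VIM and COL1A1. VIM had a log2 fold change of 0.67 without control 2 (adjusted p = 0.353 by edgeR and 0.0339 by DESeq2). Some epithelial markers also rose there: SFN by 0.77, KRT18 by 0.63 and KRT8 by 0.57. Their adjusted p were 0.182, 0.196 and 0.364 by edgeR, and 0.00366, 0.00276 and 0.0375 by DESeq2. KRT17 had −0.20 and was not called. KRT19 had 86.7, 148 and 52.7 CPM in controls 1 to 3 and 75.6, 67.6 and 88.9 CPM in the bile acid libraries, which overlap with and without control 2. With all libraries, SFN, KRT18, KRT8 and KRT19 had −0.03, −0.21, 0.22 and −0.31 (edgeR). The part of these markers in the results was not tested. PTPRC, CD3E and LYZ (leukocytes) were at 0 in all 6. In bulk RNA, fewer cells expressing a gene and less RNA per cell cannot be told apart.

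To show what the promoters of these genes share, RefSeq promoters (GRCh38.p14, 250 bases before to 50 after the gene start) were searched on both strands, and 70 of the 89 genes had one at their own position on the chromosome. The NRF1 motif (GCGC, any base, then TGCGC) occurred in 17 of 70 (24.3%), against 6.28% of all 27305 promoters and 10.8% of the 11877 promoters of genes tested here. The ETS motif CCGGAAG, which GABP can bind, occurred in 28.6% against 10.7% and 17.8%, and the YY1 motif AAGATGG in 24.3% against 6.06% and 7.02%. GGGCGG, bound by SP1, occurred in 61.4% of subunit promoters, between the 44.6% of all promoters and the 69.5% of those of tested genes, and CCAAT in 34.3% against 35.7% and 35.8%. None of these letter strings contains another. A match is a description of the letters and not a bound site. The windows below show 1 NRF1 match, in capitals, in a gene of each complex. Only windows that lie wholly before the gene start were taken, which left out the 1 match of complex IV, in COX8C.
NDUFB4 (complex I, chr3:120596157-120596206, + strand): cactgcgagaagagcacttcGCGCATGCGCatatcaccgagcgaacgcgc
SDHD (complex II, chr11:112086743-112086792, + strand): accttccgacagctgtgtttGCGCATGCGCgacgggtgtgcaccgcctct
UQCRC1 (complex III, chr3:48609664-48609713, − strand): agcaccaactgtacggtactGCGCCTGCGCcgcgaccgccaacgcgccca
ATP5ME (complex V, chr4:674466-674515, − strand): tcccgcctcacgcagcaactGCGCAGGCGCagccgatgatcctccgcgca
The match of ATP5ME is the motif read from the other strand. By complex, NRF1 matches were found in 6 of 33 promoters for complex I, 2 of 3 for complex II, 4 of 7 for complex III, 1 of 14 for complex IV and 4 of 13 for complex V.

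Levels between genes were compared in the authors' deposited FPKM (fragments per kilobase of exon, scaled to library depth), which divides by the length of all annotated exons and so understates genes with long, little-used exons. Of the 89 genes, 68 had a mean of at least 10 FPKM over the 6 libraries and 11 had a mean under 1 FPKM. The median over the tested genes was 22.8 FPKM for complex I, 27.8 for complex II, 56.4 for complex III, 72.1 for complex IV and 32.0 for complex V. The highest means were 282 FPKM for COX8A, 261 for NDUFS5, 246 for ATP5F1B and 167 for UQCRQ, and the highest of complex II was 37.9 FPKM for SDHB, the iron-sulfur subunit. Thus the small subunits COX8A and NDUFS5 stood level with the catalytic beta subunit of the ATP synthase, ATP5F1B, on this scale.

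**Figure D1:**
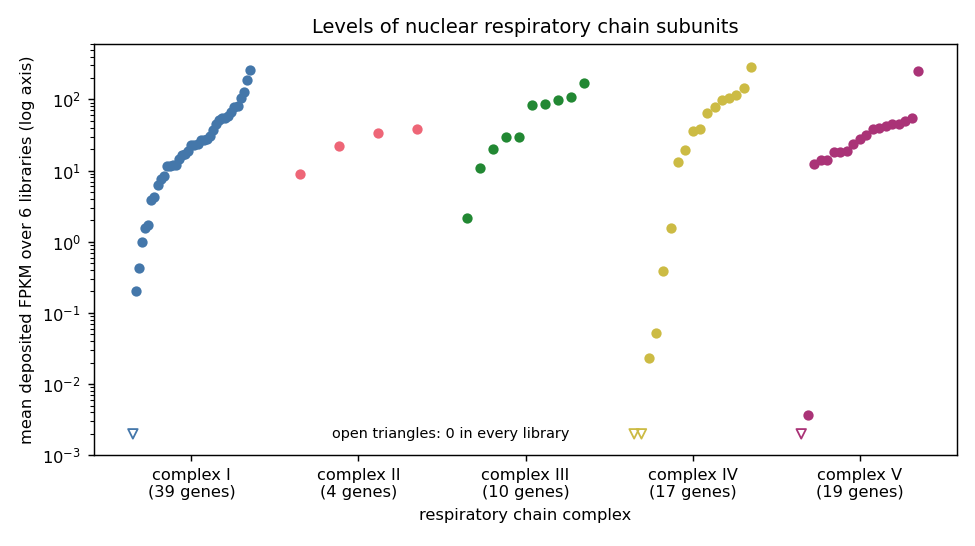
Mean deposited FPKM over the 6 libraries (log axis) for each of the 89 genes, sorted within complexes I to V, with 1 point per gene. Most genes lie at or above 10 FPKM, complexes I, IV and V reach down to genes under 1 FPKM, and the 4 open triangles are genes at 0 in every library.

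Isoforms known from other tissues were scarce or listed at 0. COX4I1, the ubiquitous form of subunit 4, made up 99.9% to 100% of the FPKM of the COX4I pair in each library, and COX4I2, the lung form, had 2 counts in all 6 libraries together. COX6A2 and COX7B2, known from striated muscle and testis respectively, were at 0 in every library, as were ATP5MGL and the readthrough gene NDUFC2-KCTD14. COX7A1, the heart and muscle form, had 10 counts in all against 20480 for COX7A2. COX8C and COX6B2, forms known from testis, had 36 and 1077 counts, and COX6B2 supplied 0.55% to 2.67% of the COX6B pair's FPKM. Genes of striated muscle (ACTA1, MYH7, MYH2, CKM, TNNT2, DES) were below 1 CPM in every library.

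The ATP synthase c-ring was supplied by all 3 of its genes, which encode the same mature protein. ATP5MC2 made up 51.6% to 60.7% of their summed FPKM, ATP5MC1 20.95% to 26.9% and ATP5MC3 12.4% to 22.9%. The lowest share of ATP5MC3 and the highest of ATP5MC1 were both in control 2. UQCRHL, a near-copy of the hinge protein gene UQCRH, made up 1.46% to 2.48% of that pair, and its reads cannot be separated with certainty from those of UQCRH.

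In complex I, 3 subunit genes were listed at very low levels. NDUFV2, an iron-sulfur subunit of the NADH-oxidising module, had 24, 0 and 17 counts in controls 1 to 3, and 11, 28 and 24 in the bile acid group, a mean of 0.203 FPKM. NDUFA7 had 27, 0 and 16 counts in the controls and 25, 24 and 23 in the bile acid libraries, and NDUFA13 had 104, 19 and 105 against 80, 87 and 92. Control 2 was thus lowest for all 3, and its 0 counts allow up to 3 counts, or 0.143 CPM before scaling. Other annotated genes cover 28.4% of the exonic bases of NDUFV2, 33.5% of those of NDUFA7 and 20.97% of those of NDUFA13, and the pseudogene reads of NDUFV2 came to 217% of its own counts, so these 3 values are uncertain. Their part in the low counts was not tested. Of the 89 genes, 20 had at least 20% of their exonic bases under another gene and 40 had none, and SDHA and NDUFV2 were the 2 whose named pseudogenes held at least 10% of the parent's counts.

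The subunits took 0.815% and 0.800% of all counts in controls 1 and 3, 1.63% in control 2, and in the bile acid libraries 0.750%, 0.972% and 0.872%, with Wilson 95% intervals no wider than 0.0054 percentage points to either side, which cover counting error only. Control 2 thus held the highest share, and the other 5 libraries lay below 1%. Complex II did not share this: its 4 genes took 0.0566%, 0.0496% and 0.0590% in controls 1 to 3 and 0.0551%, 0.0631% and 0.0657% in the bile acid libraries.

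Differences between groups were tested with edgeR's quasi-likelihood test over the 17743 genes that passed a filter on low counts, which 81 of the 89 subunits did (38 of complex I, all 4 and 10 of II and III, 12 of IV, 17 of V). With all 6 libraries no subunit passed an adjusted p of 0.05, and neither did any other gene (0.0% of 17743), and the lowest adjusted p was 0.911. DESeq2 called 19 genes (0.118% of 16113) and limma-voom with a weight for each library 65 (0.366% of 17743), none of them a subunit. At an unadjusted p under 0.05, edgeR gave 1 subunit of 81, NDUFA4L2, against 3.31% of all genes. In sign, 68 of 81 subunits were lower in bile acid libraries, against 51.2% of all tested genes.

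The median log2 fold change (bile acid over control) of the 81 subunits was −0.42 with all libraries, against −0.01 for all genes tested and −0.14 for the 8207 genes shorter than 4106 bp, the length under which 75% of the tested subunits lie. By complex it was −0.45 for I, 0.11 for II, −0.36 for III, −0.47 for IV and −0.40 for V. Without control 2, 82 subunits passed the filter (COX8C was added) and the median was 0.16, with 0.09 for I, 0.21 for II, 0.26 for III, 0.23 for IV and 0.21 for V, against 0.01 for all genes. The sign of complexes I, III, IV and V therefore turned with 1 library and that of complex II did not. Without control 2, 73 of 82 subunits were higher in bile acid libraries, against 50.8% of the 18274 genes tested: 31 of 38 in complex I, 3 of 4 in II, 9 of 10 in III, 13 of 13 in IV and 17 of 17 in V.

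No subunit passed the threshold without control 2 either. There edgeR called 1 gene (0.00547%), no subunit, and the lowest adjusted p of a subunit was 0.364, for COX6B1. DESeq2 called 143 genes higher (0.924% of 15472) and 12 lower (0.0776%), none of them a subunit, and its lowest adjusted p for a subunit was 0.0902, again COX6B1. At an unadjusted p under 0.05, edgeR gave 10 of 82 subunits against 7.98% of all genes: NDUFS5, NDUFA2, NDUFB6, NDUFA4L2, UQCRH, COX6B1, ATP5F1D, ATP5F1A, ATP5MC1 and ATP5MC3. Leaving out a control leaves 2 libraries in that group, whose spread stands for the whole group.

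**Figure D2:**
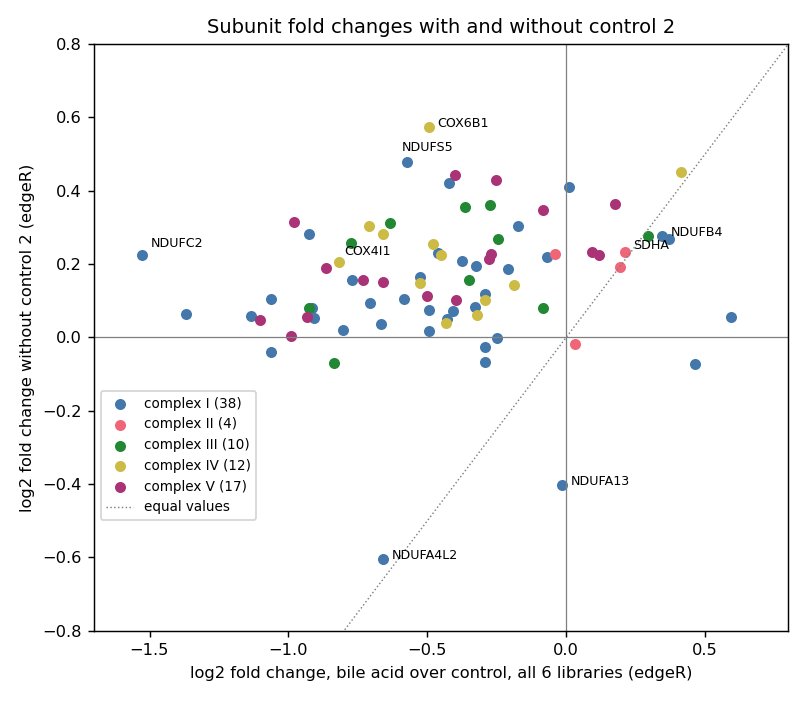
Log2 fold change (bile acid over control, edgeR) of each tested subunit with all 6 libraries on the x axis and without control 2 on the y axis, coloured by complex. Most points lie left of 0 and above 0, so that their sign differs between the axes, while NDUFA4L2 lies below 0 on both axes and NDUFB4 and SDHA above 0 on both.

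Control 2 lay above all 5 other libraries in 70 of 81 subunits, against 36.4% of all genes tested, and below all 5 in 6, against 41.8%. It was at least 2 times the mean of controls 1 and 3 in 54 of the 81 and at least 4 times in 14. The median log2 difference of control 2 from controls 1 and 3 was 1.23 for complex I, 0.00 for II, 1.48 for III, 1.47 for IV and 1.48 for V, against −0.08 for all genes. In bile acid library 1 these medians were −0.14, 0.05, −0.04, −0.07 and 0.05. They were 0.30, 0.19, 0.42, 0.44 and 0.31 in bile acid library 2, and 0.06, 0.24, 0.22, 0.18 and 0.24 in bile acid library 3. The 3 bile acid libraries were therefore not alike: bile acid 1 was above both of controls 1 and 3 in 25 of 82 subunits (36.0% of all genes), bile acid 2 in 75 (36.8%) and bile acid 3 in 53 (34.3%). Bile acid 1 was below both in 46 of 82 (38.7% of all genes), bile acid 2 in 3 (37.4%) and bile acid 3 in 11 (37.4%). The higher values of most subunits without control 2 were thus not shared by bile acid 1.

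**Figure D3:**
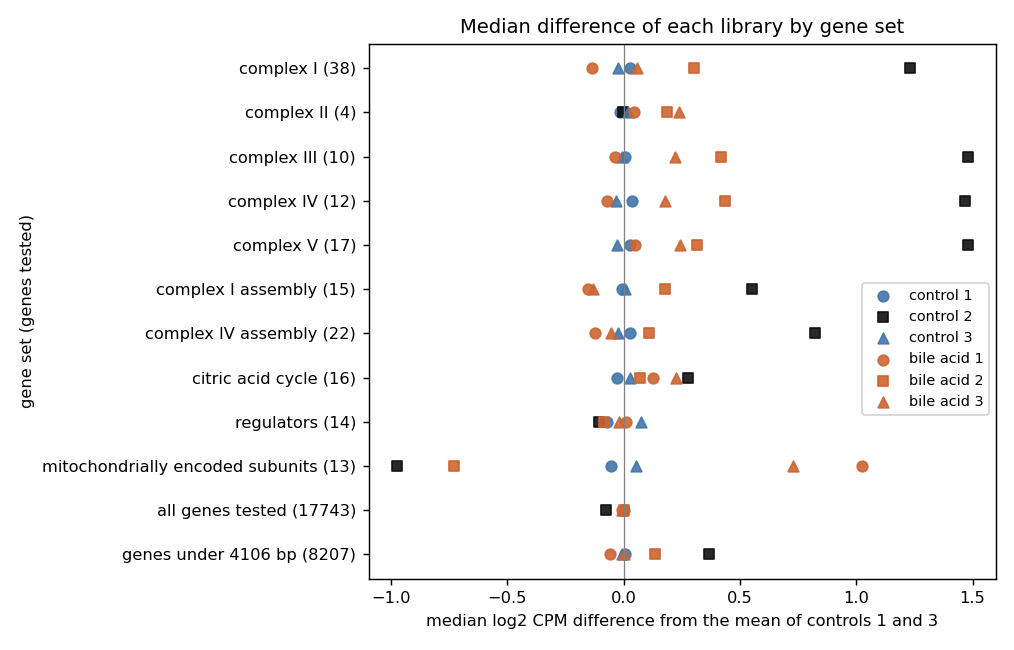
Median log2 CPM difference of each library from the mean of controls 1 and 3 (x axis) for the subunits of each complex, related gene lists and all genes tested, with the number of genes in brackets. Control 2 lies near 1.2 to 1.5 for complexes I, III, IV and V and near 0 for complex II, and the mitochondrially encoded subunits show control 2 and bile acid 2 below 0 and bile acid 1 and 3 above 0.

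Since short genes were high in control 2 and 75% of tested subunits are under 4106 bp, the subunits were also read within 4 equal classes of exonic length (bounds at 2542.5, 4414 and 6949 bp). The 40 subunits in the shortest class had a median difference of 1.47 in control 2, against 0.55 for all genes there. The 21, 11 and 9 subunits of the next classes had 1.15, 1.52 and 0.97, against 0.17, −0.21 and −0.58. The subunits' difference was thus larger than that of genes of like length in each class, and with the length trend removed from each library it was still 1.07 (1.14, 0.35, 1.02, 1.22 and 1.08 for complexes I to V). Bile acid library 2 had a length trend of the same direction and smaller size (0.18, 0.08, −0.03 and −0.17), and its subunits lay at 0.33, 0.35, 0.31 and 0.23. Removing the trend without control 2 gave group medians of 0.08, 0.23, 0.26, 0.20 and 0.19 for complexes I to V.

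**Figure D4:**
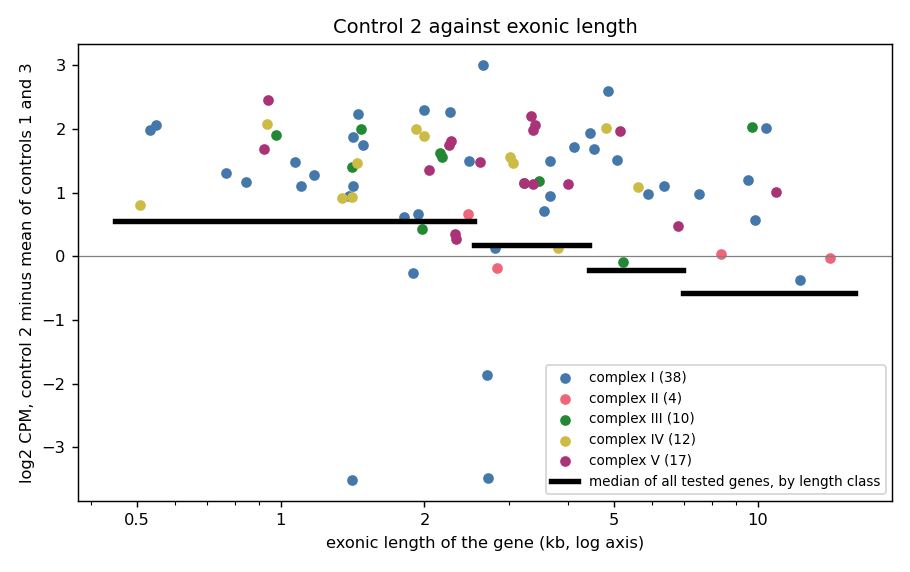
Log2 CPM of control 2 minus the mean of controls 1 and 3 (y axis) against exonic length in kb (log axis) for the 81 tested subunits by complex, with black bars for the median of all tested genes in each length class. The bars step down from 0.55 to −0.58, most subunits of every length lie above their bar, and NDUFV2, NDUFA7 and NDUFA13 are the 3 points below −1.

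In complex I, which oxidises NADH, NDUFS5 (chr1:39026318-39034636), an accessory subunit facing the intermembrane space, had 97.4, 405 and 96.7 CPM in controls 1 to 3, and 116, 148 and 139 CPM in bile acid 1, 2 and 3. Each bile acid library was above controls 1 and 3 and below control 2. Its log2 fold change was −0.57 ± 0.56 (SE) with all libraries and 0.48 ± 0.15 without control 2 (edgeR, adjusted p = 0.911 and 0.433). NDUFC2 (chr11:78068304-78080219), a membrane-arm subunit, had 29.2, 251 and 33.4 CPM in the controls and 29.99, 46.2 and 32.8 CPM in the bile acid libraries. Its value in control 2 was 8.04 times the mean of controls 1 and 3, the highest such ratio of the 81 subunits, and outside control 2 the groups overlapped.

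The flavoprotein subunit NDUFV1, which binds NADH and FMN, had 305, 856 and 294 CPM in the controls and 262, 342 and 311 CPM in the bile acid libraries. NDUFS7, which carries the last iron-sulfur cluster before ubiquinone, had 31.7, 61.4 and 30.8 against 27.1, 37.5 and 33.9 CPM. For both, controls 1 and 3 lay within the range of the bile acid libraries, and without control 2 their log2 fold changes were 0.04 ± 0.15 and 0.08 ± 0.17 (SE). The authors' deposited values with all libraries were −0.65 for NDUFV1 and −0.29 for NDUFS7. NDUFS1, the largest core subunit, went the other way in control 2, with 85.4, 66.0 and 84.8 CPM in the controls and 116, 80.9 and 109 CPM in the bile acid libraries. Bile acid 2 was below controls 1 and 3 for this gene, so the groups overlapped.

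NDUFB4 (chr3:120596309-120602500), whose promoter window is shown above, had 76.7, 63.6 and 75.2 CPM in controls and 82.9, 94.0 and 97.1 CPM in bile acid libraries. All 3 bile acid libraries exceeded all 3 controls, with means of 91.3 ± 7.44 and 71.8 ± 7.22 CPM (SD, n = 3). Its log2 fold change was 0.35 ± 0.18 (SE), with an adjusted p of 0.911 by edgeR, and 0.28 ± 0.13 without control 2.

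NDUFA4L2 (chr12:57234903-57240715), the hypoxia-inducible relative of NDUFA4, was lower in every bile acid library: 4.49, 4.75 and 3.79 CPM against 6.86, 7.28 and 6.43 CPM in the controls. Control 2 was close to the other controls here. The log2 fold change was −0.66 ± 0.24 (SE) with all libraries and −0.60 ± 0.24 without control 2, with unadjusted p of 0.0268 and 0.0278 and adjusted p of 0.911 and 0.567 by edgeR. It was the only subunit whose groups separated downwards with all libraries (4.89% of all genes did so). NDUFA4 itself had 98.1, 153 and 88.7 CPM in controls and 82.4, 135 and 106 in bile acid libraries, which overlap, and NDUFA4L2 made up 8.15%, 5.69% and 8.42% of the pair's FPKM in controls and 6.46%, 4.27% and 4.34% in bile acid libraries.

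Complex II oxidises succinate to fumarate and is at the same time an enzyme of the citric acid cycle. SDHA (chr5:218241-256700), its flavoprotein, had 198, 202 and 198 CPM in controls and 200, 232 and 260 CPM in bile acid libraries. The 3 controls had an SD of 2.39 CPM (n = 3), and bile acid 1 was level with them. Its log2 fold change was 0.21 ± 0.18 (SE) with all libraries and 0.23 ± 0.15 without control 2 (adjusted p = 0.911 and 0.768 by edgeR). Counts of the named SDHA pseudogenes came to 14.2%, 17.7% and 13.2% of those of SDHA in controls. In bile acid libraries they came to 11.7%, 11.8% and 8.85%, and the part of this in the SDHA values was not tested. The membrane anchor SDHC had 135, 135 and 142 CPM in controls and 146, 153 and 172 in bile acid libraries, with no overlap and a log2 fold change of 0.19 ± 0.17 (SE). The other anchor, SDHD, had 107, 99.9 and 121 against 99.7, 121 and 115 CPM, and SDHB 92.6, 146 and 91.8 against 101, 117 and 103 CPM. SDHB was the only one of the 4 with control 2 highest. SDHA, SDHC and SDHD have long or mid-length exonic sequences (8383, 14160 and 2838 bp), and with the length trend removed the median of the complex in control 2 moved from 0.00 to 0.35.

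In complex III, which passes electrons from ubiquinol to cytochrome c, the redox subunits were CYC1 (cytochrome c1) and UQCRFS1 (the Rieske iron-sulfur protein). CYC1 had 214, 277 and 199 CPM in controls and 192, 228 and 231 CPM in bile acid libraries. UQCRFS1 had 91.3, 210 and 95.1 against 101, 131 and 103 CPM. The groups overlapped for CYC1 with and without control 2, and for UQCRFS1 only through control 2. UQCRC2 (chr16:21952660-21983660), a core protein of the matrix side, had 165, 155 and 164 CPM in controls and 180, 202 and 211 CPM in bile acid libraries, with no overlap. Its log2 fold change was 0.29 ± 0.17 (SE) with all libraries and 0.28 ± 0.14 without control 2 (adjusted p = 0.911 and 0.665 by edgeR). Its partner UQCRC1 had 274, 583 and 250 against 264, 321 and 285 CPM, so the pair of core proteins differed in control 2 by a ratio of 2.22 for UQCRC1 and 0.942 for UQCRC2 over controls 1 and 3. The small subunit UQCRQ had 190, 754 and 188 CPM in controls and 151, 250 and 195 in bile acid libraries.

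In complex IV, which reduces oxygen, COX4I1 (chr16:85798633-85807044), the largest nuclear subunit, had 289, 1134 and 271 CPM in controls and 263, 397 and 299 CPM in bile acid libraries. Only bile acid 2 stood well above controls 1 and 3. Its log2 fold change was −0.82 ± 0.56 (SE) with all libraries and 0.20 ± 0.18 without control 2. COX6B1 (chr19:35648223-35658861), which links the monomers of the enzyme on the intermembrane side, had 64.6, 273 and 64.2 CPM in controls and 78.7, 109 and 97.8 CPM in bile acid libraries. All 3 bile acid libraries were above controls 1 and 3, whose values differed by less than 1 CPM. Its log2 fold change without control 2, 0.57 ± 0.16 (SE), was the highest of the 82 subunits, with an unadjusted p of 0.00428 and an adjusted p of 0.364 by edgeR. With all libraries it was −0.49 ± 0.56. COX8A had 147, 248 and 137 against 136, 175 and 155 CPM, which overlap throughout. COX6B2 had 7.22, 6.16 and 4.35 CPM in controls and 7.77, 7.16 and 8.69 in bile acid libraries, and was the only tested subunit of the complex with control 2 not highest.

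In complex V, the catalytic head is built of alpha and beta subunits. The alpha subunit ATP5F1A (chr18:46080248-46104334) had 220, 459 and 237 CPM in controls and 259, 301 and 305 CPM in bile acid libraries. The beta subunit ATP5F1B had 602, 754 and 579 against 611, 705 and 750 CPM. For both, all bile acid libraries were above controls 1 and 3 and below control 2, and the log2 fold changes without control 2 were 0.35 ± 0.14 and 0.23 ± 0.15 (SE). The central stalk subunit ATP5F1D had 78.0, 240 and 65.8 CPM in controls and 87.6, 107 and 96.4 CPM in bile acid libraries, a log2 fold change of 0.44 ± 0.15 (SE) without control 2 with an adjusted p of 0.485 by edgeR. With all libraries, the authors' deposited log2 fold changes were −0.06 for ATP5F1A, 0.12 for ATP5F1B and −0.37 for ATP5F1D.

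The c-ring genes differed from one another. ATP5MC1 had 39.9, 109 and 38.3 CPM in controls and 48.5, 53.6 and 54.7 in bile acid libraries, and ATP5MC3 had 93.0, 130 and 92.7 against 108, 119 and 129 CPM. ATP5MC2, the most abundant of the 3, had 174, 375 and 166 against 147, 225 and 173 CPM. Without control 2, the bile acid libraries were above controls 1 and 3 throughout for ATP5MC1 and ATP5MC3 (log2 fold changes 0.43 and 0.36) and overlapped them for ATP5MC2 (0.10). The authors' deposited values with all libraries were −0.23 for ATP5MC1, 0.19 for ATP5MC3 and −0.37 for ATP5MC2. ATP5PO, the oligomycin-sensitivity subunit of the peripheral stalk, had 34.6, 154 and 32.3 CPM in controls and 30.6, 41.6 and 30.7 in bile acid libraries, and its log2 fold change moved from −1.10 to 0.05 without control 2.

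**Figure D5:**
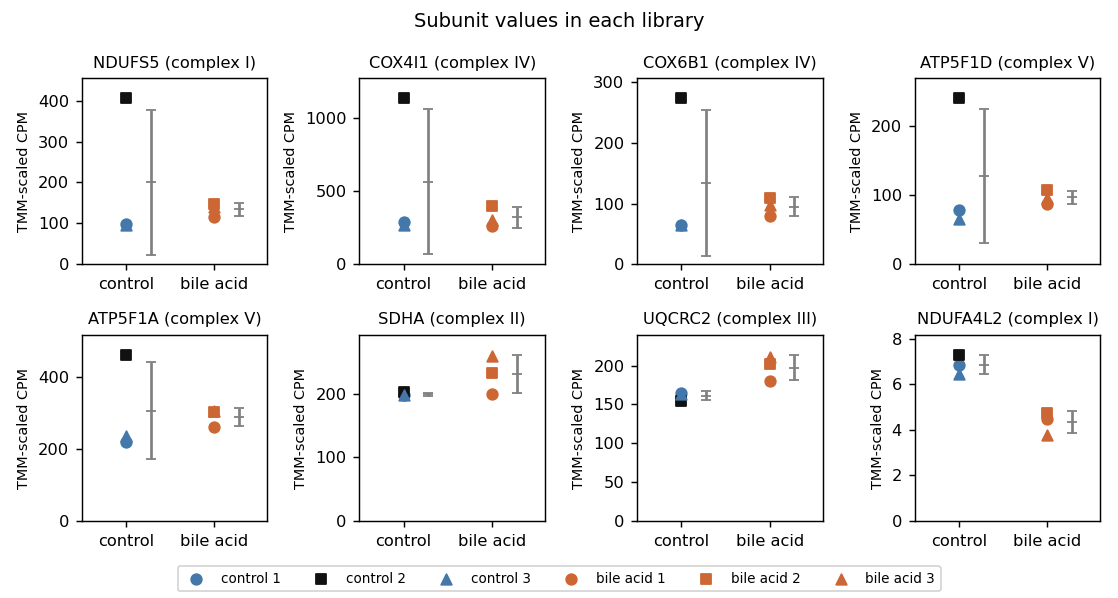
TMM-scaled CPM in each library for 8 subunits, with grey bars for the mean ± SD of each group (n = 3). Control 2 (black square) stands far above the rest for NDUFS5, COX4I1, COX6B1, ATP5F1D and ATP5F1A and level with controls 1 and 3 for SDHA, UQCRC2 and NDUFA4L2.

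Counted over all members, the groups did not overlap in 4 of 81 subunits with all libraries: NDUFB4, SDHC and UQCRC2 were higher in all bile acid libraries (5.29% of all genes did so) and NDUFA4L2 lower. Without control 2, 23 of 82 were higher without overlap, against 12.0% of all genes, and 2 were lower, NDUFA4L2 and NDUFA13, against 12.9%. The 23 were 7 of 38 in complex I, 3 of 4 in complex II, 4 of 10 in complex III, 1 of 13 in complex IV (COX6B1) and 8 of 17 in complex V. In complex V they were ATP5F1A and ATP5F1B of the head, ATP5F1C and ATP5F1D of the central stalk, and ATP5PB, ATP5MF, ATP5MC1 and ATP5MC3. The 11 subunits in which control 2 was not the highest library were NDUFB4, NDUFS1, NDUFA13, NDUFA7, NDUFV2, SDHA, SDHC, SDHD, UQCRC2, COX6B2 and ATP5F1C.

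Assembly factors, which build the complexes without staying in them, were also high in control 2 in the median. The median log2 difference of control 2 from controls 1 and 3 was 0.55 for 15 assembly factors of complex I, 0.76 for 6 of complex III and 0.82 for 22 of complex IV, and 1.36 for 4 of complex II. Their median log2 fold changes were −0.38, −0.36, −0.43 and −0.74 with all libraries and −0.03, −0.04, 0.00 and −0.12 without control 2, and none of these genes was called. For 5 assembly and inhibitor genes of complex V they were −0.32 and 0.07. NDUFAB1, the acyl carrier subunit of complex I, had a log2 fold change of −0.58 with all libraries and 0.18 without control 2. CYCS, cytochrome c, had −0.18 and 0.12. SDHAF2, which helps flavin attach to SDHA, had 10.1, 67.7 and 11.04 CPM in controls and 14.2, 16.0 and 11.5 CPM in bile acid libraries. SDHAF3 had 13.7, 13.4 and 12.4 against 9.02, 11.2 and 9.21 CPM, so that control 2 was level with the other controls for it. PET100 of complex IV had 2.59, 16.1 and 2.39 against 2.497, 3.77 and 2.23 CPM.

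Of the 16 citric acid cycle and pyruvate dehydrogenase genes listed, 15 had a positive log2 fold change without control 2 (median 0.12), 9 with all libraries (median 0.04), and none was called. SUCLG1, a subunit of succinyl-CoA ligase, had 59.4, 129 and 61.2 CPM in controls and 71.3, 88.9 and 83.5 CPM in bile acid libraries, the highest log2 fold change of the list without control 2 (0.44). Among 14 regulators of mitochondrial biogenesis, the median was 0.06 with all libraries and −0.05 without control 2. PPARGC1A, the coactivator PGC-1 alpha, was the lowest of them in log2 fold change, with 1.73, 1.57 and 1.87 CPM in controls and 1.07, 0.804 and 1.04 CPM in bile acid libraries. The groups did not overlap, its level was under 2 CPM throughout, and it was not called. NRF1 had 49.7, 60.6 and 57.6 against 39.8, 51.5 and 46.9 CPM, which overlap, and it was not called. The highest log2 fold changes of the list were 0.25 for PPARGC1B with all libraries and 0.24 for TWNK without control 2. PPARGC1B had 1.51, 1.40 and 2.09 CPM in controls and 1.997, 1.57 and 2.40 CPM in bile acid libraries. TWNK had 23.6, 27.6 and 21.3 against 27.0, 24.7 and 27.2 CPM, and neither was called.

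The 13 subunits encoded in mitochondrial DNA did not move with the nuclear ones from library to library. They took 0.285%, 0.200% and 0.312% of all counts in controls 1 to 3, and 0.563%, 0.199% and 0.502% in the bile acid group. Their median log2 difference from controls 1 and 3 was −0.97 in control 2, 1.02 in bile acid 1, −0.73 in bile acid 2 and 0.73 in bile acid 3. All 13 had a positive log2 fold change, with a median of 0.73 with all libraries and 0.54 without control 2, and none was called. MT-CO1, the catalytic subunit of complex IV, had 666, 588 and 748 CPM in controls and 1362, 567 and 1384 CPM in bile acid libraries, and MT-ND4 of complex I had 426, 123 and 458 against 960, 267 and 812 CPM. Control 2 and bile acid 2, the libraries with the highest nuclear medians in complexes I, III, IV and V, were those with the lowest mitochondrial ones. In control 2, MT-CO2 and MT-CO3, at 491 and 651 CPM, were above controls 1 and 3 (247 and 326, 313 and 352 CPM), as was MT-ND3 by less (71.0 against 56.1 and 66.0 CPM), and the other 10 were below both.

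In the authors' deposited table of the same comparison, 70 of the 85 subunits listed had a negative log2 fold change, 15 a positive one, and the median was −0.39. In the authors' deposited table the lowest adjusted p of a subunit was 0.977. In the authors' deposited enrichment table of gene ontology terms, respiratory chain complex assembly had the lowest normalised enrichment score of 2196 terms, −2.76 (adjusted p 5.12e-09, 100 genes), and oxidative phosphorylation had −1.92 (140 genes). The deposited leading-edge genes were chosen on these fold changes, so their direction with all libraries is not independent. Their direction without control 2 is not independent either, since the remaining libraries also entered that choice. Of the 67 leading-edge genes of oxidative phosphorylation, 49 are subunits described here. All 67 were lower in bile acid libraries with control 2 (median log2 fold change −0.53, edgeR) and 12 of 67 without it (median 0.09). For complex assembly, 66 of 66 were lower with control 2 and 26 of 66 without it. Of all genes tested, 51.2% were lower with all libraries and 49.2% without control 2.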

How the data were processed

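Gene counts, gene FPKM, size-factor-scaled values and tables of the authors' own comparison were used for 3 control and 3 bile acid libraries. The submitters' processing notes name HISAT2 2.0.5, featureCounts, DESeq2 and GRCh38, with no role or order; the annotation and strand setting are not given in the sources used here. Gene starts and ends in the table equal GENCODE 29 for all 58735 genes. The deposited counts are whole numbers per gene, per the file headers. The deposited FPKM values are the authors' own. The deposited scaled values (signal) gave back whole reads for 100.0% of values within 0.001. With edgeR, those reads gave 0 called genes with all libraries and 1 without control 2, no subunit. In control 1 they summed to 27318602, against 26218597 in the deposited counts, so these are not the same counts. The deposited comparison gives log2 fold changes, p-values and enrichment scores by the authors. The means of 2 groups in a deposited table were not used.

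Counts of all genes were fitted with edgeR 4.0.16 (TMM scaling, filterByExpr, quasi-likelihood test, Benjamini-Hochberg adjustment over all genes tested, threshold 0.05) in R 4.3.3. CPM are TMM-scaled, and log2 CPM use a prior count of 2. Alternatives were DESeq2 1.42.0, limma 3.58.1 (voom, with and without library weights), other scaling, no or another filter, each library left out, the replicate block, removal of the length trend (lowess, span 0.3), and log2(FPKM + 1 or 0.1). Exon overlaps were found with bedtools 2.31.1. Tests were tried on simulated data first. Total counts ran from 21006677 to 28497721, which puts 3 counts at 0.105 to 0.143 CPM before scaling. The subunits, gene lists and tests were chosen with earlier results of these data known, and leaving out control 2 was part of that choice. Values in every library are given for most subunits that are highest by FPKM or most changed in their complex, whose groups separate, or that are catalytic or carry electrons. For the related lists they are given for some genes only, and not for every list.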

Additional observations from a re-analysis of the deposited data

How the results depend on the processing

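No subunit was called in any of the fits run, and the lowest adjusted p over 28 named subunits and 24 settings was 0.0902. The number of genes called over all genes was 0 in edgeR, 19 in DESeq2, 65 in limma-voom with library weights (control 2 had a weight of 0.0896) and 0 to 155 when each library was left out (155 with DESeq2 without control 2), none a subunit. The weighted fit and the fits without control 2 other than the plain edgeR one were added after seeing the data. Ranges over libraries left out pool the edgeR fits that leave out each library with these added fits without control 2. Medians over each library left out ran from −0.64 to 0.16 for all subunits, −0.69 to 0.093 for complex I, 0.069 to 0.23 for II, −0.61 to 0.26 for III, −0.72 to 0.23 for IV and −0.70 to 0.23 for V, and only the fits without control 2 gave positive values for all subunits and for complexes I, III, IV and V. With library weights they were 0.10, 0.03, 0.21, 0.20, 0.13 and 0.21, and 59 of 81 subunits were higher. With the length trend removed they were −0.25, −0.35, 0.09, −0.21, −0.27 and −0.29.

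Whether replicate numbers pair the samples was not settled. Deviations from the group mean correlated at 0.31, 0.38 and 0.098 between same-numbered libraries. For controls 1 and 2 this was the best match, while control 3 correlated best with bile acid 1 (0.19). Deviations within a group are not independent of one another, so these correlations cannot decide the question. With the replicate block the median was −0.28 for all subunits and 0 genes were called.

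Of 672 pairs of named subunit and setting, 539 kept the sign and 133 did not. The sign turned with library weights for NDUFS5 (0.44), NDUFC2 (0.090), SDHB (0.17), COX8A (0.10), COX4I1 (0.084), COX6B1 (0.53), ATP5F1D (0.37), ATP5MC1 (0.42), NDUFA2 (0.38), NDUFS7 (0.063), UQCRFS1 (0.18), CYC1 (0.094), ATP5F1A (0.36), ATP5MC2 (0.013) and NDUFA4 (0.15). The sign turned with the length trend removed for SDHB (0.11), COX8A (0.10), SDHC (−0.039), NDUFA13 (0.011) and CYC1 (0.090). The sign turned with the length trend removed and the replicate block for NDUFS5 (0.024), SDHB (0.12), COX8A (0.10), SDHC (−0.00063), COX6B1 (0.080), ATP5MC1 (0.043), NDUFA2 (0.0051), NDUFA13 (0.26) and CYC1 (0.089). It turned for NDUFA13 in limma-voom (0.13), with no filter (0.012), with the replicate block (0.17), for log2(FPKM + 1) (0.028), for log2(FPKM + 0.1) (0.16) and for log2(FPKM + 1) with no minimum (0.028). It turned for SDHB with library size alone (0.019) and with no filter (0.0060). The cause of each was not tested.

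Over the same pool of fits with a library left out, log2 fold changes ran from −0.90 to 0.48 for NDUFS5, −1.96 to 0.23 for NDUFC2, −0.15 to 0.23 for SDHB, −1.24 to 0.081 for UQCRQ, −0.33 to 0.14 for COX8A, −1.14 to 0.21 for COX4I1, −1.45 to 0.047 for ATP5PO, −0.82 to 0.58 for COX6B1 and −0.71 to 0.44 for ATP5F1D. They ran from −0.50 to 0.43 for ATP5MC1, −0.71 to 0.42 for NDUFA2, −0.43 to 0.35 for NDUFA13, −0.92 to 0.038 for NDUFV1, −0.49 to 0.11 for NDUFS7, −0.45 to 0.27 for UQCRFS1, −0.17 to 0.082 for CYC1, −0.27 to 0.41 for ATP5F1A, −0.59 to 0.10 for ATP5MC2 and −0.25 to 0.22 for NDUFA4.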
